A study of Mus musculus with 6 samples.

Results

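The type I interferon module described here is a set of 36 genes, among the 12436 genes listed in the deposited tables of a single-cell RNA sequencing study of regenerating mouse muscle. It holds the ligand gene *Ifnb1*, the receptor genes *Ifnar1* and *Ifnar2*, and 33 genes that interferon is known to raise. The members were chosen by name with earlier results of these data in view, among them *Ifnb1* in *Pdgfra*-positive cells, so the levels given here are descriptions and their direction is not independent evidence.

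The cells came from the tibialis anterior muscle (TAM) of male mice, aged 3 to 5 months, that carried Gt(ROSA)26Sor<tm1(Fucci2aR)Jkn, a Cre-dependent cell cycle reporter, on a B6;129 background and, for these libraries, no Cre. The 3 control groups received a matched diet and the 3 hypothyroid groups a low-iodine diet with 0.15% propylthiouracil (PTU), which blocks thyroid hormone synthesis, begun 3 weeks before injury. The muscle was sampled uninjured (0 dpi) or at 5 or 14 days after an injection of cardiotoxin at 50 µg/ml, a venom peptide that kills muscle fibers (5 and 14 dpi). Each of the 6 combinations is 1 library made from 3 pooled mice, so there are no replicates, no difference between conditions was tested, and every interval below covers counting error only. Muscle was digested with enzymes before capture, so intact fibers are largely missing from the cells.

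Type I interferons are secreted proteins that cells release after sensing viral or misplaced nucleic acid. Interferon β binds the receptor pair IFNAR1 and IFNAR2, and the signal passes through STAT2 and IRF9 to a short DNA element in the promoters of many antiviral genes. In muscle, fibro-adipogenic progenitors (FAPs), which carry *Pdgfra*, support regeneration, and macrophages clear debris. Several stimulated genes, such as *Irf1*, *Gbp2* and *Cxcl10*, also respond to interferon γ from T and NK cells, so the set is not read by type I interferon alone.

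The promoters of the genes the results turn on are shown because the response runs through them. All 36 members were matched to the GRCm39 annotation, and 250 bases before each annotated start were searched on both strands for 3 patterns, GAAANNGAA (interferon-response type), AANNGAAA (bound by IRF factors) and TTCNNNGAA (gamma-activated type). The sequences run 5′ to 3′ on the gene's strand, up to the base before the start, and capitals mark every match to the first 2 patterns. *Ifnb1* (chr4:88441112-88441261, minus strand) is shown from 250 to 101 bases before its annotated start, *Isg15* is at chr4:156285304-156285553 (minus), *Ifit1* at chr19:34618021-34618270 (plus), *Rsad2* at chr12:26506452-26506701 (minus), *Cxcl10* at chr5:92496749-92496998 (minus) and *Xaf1* at chr11:72192147-72192396 (plus).
Ifnb1: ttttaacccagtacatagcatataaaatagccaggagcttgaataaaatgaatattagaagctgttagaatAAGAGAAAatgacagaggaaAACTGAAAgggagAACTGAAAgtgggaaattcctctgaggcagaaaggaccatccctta
Isg15: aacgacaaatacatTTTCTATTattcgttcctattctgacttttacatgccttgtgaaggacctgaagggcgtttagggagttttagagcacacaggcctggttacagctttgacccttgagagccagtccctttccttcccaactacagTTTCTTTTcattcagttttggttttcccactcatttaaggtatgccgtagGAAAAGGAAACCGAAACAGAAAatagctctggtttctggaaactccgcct
Ifit1: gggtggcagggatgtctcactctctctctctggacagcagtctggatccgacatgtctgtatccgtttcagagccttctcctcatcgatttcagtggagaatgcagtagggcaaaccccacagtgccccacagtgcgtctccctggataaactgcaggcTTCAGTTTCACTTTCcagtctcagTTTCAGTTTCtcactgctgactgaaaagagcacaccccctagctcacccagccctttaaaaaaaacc
Rsad2: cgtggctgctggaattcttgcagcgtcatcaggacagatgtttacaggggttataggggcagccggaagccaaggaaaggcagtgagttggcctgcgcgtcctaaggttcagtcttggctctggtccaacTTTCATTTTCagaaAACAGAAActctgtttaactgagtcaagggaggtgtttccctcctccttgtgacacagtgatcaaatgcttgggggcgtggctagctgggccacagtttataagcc
Cxcl10: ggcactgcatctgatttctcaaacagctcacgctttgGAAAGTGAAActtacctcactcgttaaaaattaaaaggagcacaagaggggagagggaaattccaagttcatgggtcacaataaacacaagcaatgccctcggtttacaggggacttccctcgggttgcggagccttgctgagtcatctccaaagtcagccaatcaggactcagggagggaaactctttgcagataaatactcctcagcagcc
Xaf1: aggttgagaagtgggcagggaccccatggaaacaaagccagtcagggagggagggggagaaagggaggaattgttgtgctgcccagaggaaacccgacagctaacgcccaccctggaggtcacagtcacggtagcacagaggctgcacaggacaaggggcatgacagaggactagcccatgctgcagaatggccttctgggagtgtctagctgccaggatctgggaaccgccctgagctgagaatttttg

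GAAANNGAA was found in 12 of the 33 stimulated promoters (36.4%), against 7.38% of 12160 promoters of the same length, and 8 of the 33 held at least 2 copies, against 0.707%. *Isg15* held 3 overlapping copies within 50 bases of its start, *Ifit1* held 3 copies, and *Rsad2* and *Cxcl10* held 1 each. AANNGAAA stood in 14 of the 33 promoters (42.4%), against 19.7% of all promoters, and it overlapped 24 of the 26 matches of GAAANNGAA in the members. TTCNNNGAA stood in 6 of the 33 (18.2%), against 6.55%. *Ifnb1* held 3 matches of AANNGAAA between 179 and 139 bases before its annotated start, in the stretch where its enhancer is known to lie. The annotated transcript of *Ifnb1* begins at its start codon, so these distances are not counted from the start of transcription. *Xaf1* held none of the 3 patterns, as did 15 of the 33 stimulated promoters, which says only that these letters are not in this window.

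The tables hold 20269 cell columns in runs of alphabetical barcodes, and 1680 cells stand in the tables of 2 conditions. Only the first run of each table was used, 11207 cells, with 528 to 3294 cells and 2283954 to 23497544 UMIs (unique molecular identifiers, each a captured RNA molecule) a library. Whether each first run belongs to its label was not tested, and 12 barcodes occur in the first runs of more than 1 table. Median depth was 3634 to 4589 UMIs a cell in 4 libraries, but 8055 in hypothyroid muscle at 5 dpi and 6864.5 at 14 dpi. Cells were clustered without the 36 members and 123 other pathway genes. Clusters were named "-like" from marker lists, which gave 3652 FAP-like, 1417 endothelial-like, 1119 monocyte/macrophage-like, 805 NK cell-like, 774 T cell-like and 519 myogenic progenitor-like cells. Cluster 5 (1075 cells, led by *Ltbp2*, *Tnc* and *Cthrc1*) and cluster 10 (466 cells, led by *Ccl22*, *Il4i1* and *Ccr7*) did not meet the naming rule and keep their numbers. Cluster 5 had raised *Col1a1* and *Col3a1* and was almost entirely from 5 dpi, with 325 control and 706 hypothyroid cells.

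The 33 stimulated genes together made up very different parts of the RNA of each cell class. Levels are CPM, the UMIs of a gene or list in the pooled cells of a class and library, scaled so that every pool has the same total. Summed over the 33 genes, cluster 10 had the highest level at 5 dpi, 12091 CPM in controls and 19286 CPM in hypothyroid muscle. T cell-like cells followed with 8817 and 11938 CPM. Endothelial-like cells had 8266 and 9647 CPM and monocyte/macrophage-like cells 7284 and 9890 CPM. FAP-like cells had 3687 and 4262 CPM, cluster 5 had 2811 and 4112 CPM, and myogenic progenitor-like cells had the lowest level of these classes, 1457 and 2210 CPM. In hypothyroid muscle the intervals of endothelial-like (9287 to 10017 CPM) and monocyte/macrophage-like cells (9801 to 9979 CPM) overlapped, so their order there is within counting error. FAP-like, endothelial-like and myogenic progenitor-like cells were sampled at all 3 times with at least 20 cells a library, and in each diet the level was highest at 5 dpi in all 3 classes.

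**Figure D1:**
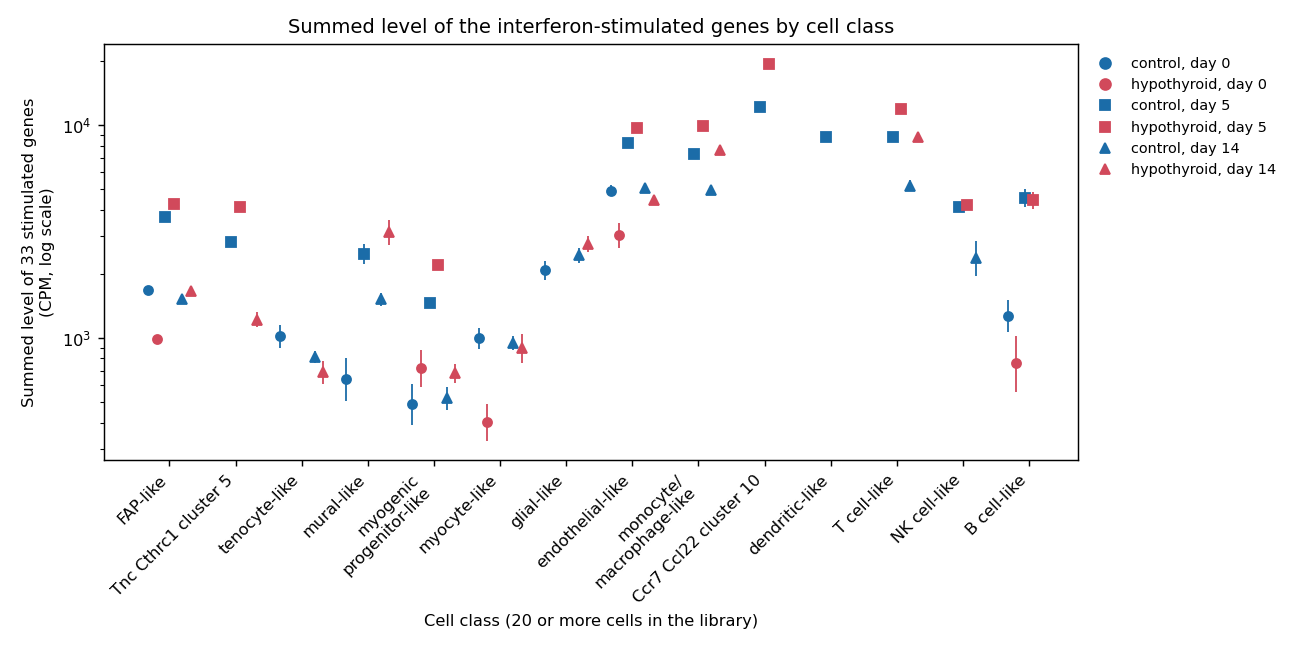
Summed level of the 33 stimulated genes (CPM, log axis) in each cell class with at least 20 cells in the library; blue is control and red hypothyroid, the marker shape gives the day, and bars are 95% Poisson intervals of the summed UMIs. Cluster 10 at 5 dpi sits highest (12091 and 19286 CPM), and the 0 dpi points of FAP-like, endothelial-like, myocyte-like and B cell-like cells are pairs in which red lies below blue.

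FAP-like cells of uninjured hypothyroid muscle held much less of the antiviral program than those of control muscle. Their summed level was 985 CPM, where controls had 1676 CPM, and the hypothyroid to control ratio was 0.588 (0.556 to 0.621, a 95% counting interval like those that follow). At 5 dpi the ratio was 1.16 (1.10 to 1.21), and at 14 dpi it was 1.08 (1.06 to 1.11). In time, the level rose above 2-fold in both diets, from 1676 to 3687 CPM in controls (ratio 2.20) and from 985 to 4262 CPM in hypothyroid muscle (ratio 4.33), and was at 1525 and 1653 CPM at 14 dpi. The FAP-like pools at 5 dpi were small, 94 control and 168 hypothyroid cells. Cluster 5, with raised *Col1a1* and *Col3a1*, had 325 and 706 cells at 5 dpi and 0 at 0 dpi. Changes over time in FAP-like cells leave it out. With all columns of the tables the change to 5 dpi was 1.03 in controls and 2.26 in hypothyroid muscle. At 0 dpi, however, all columns include copies of cells from the tables of other conditions, so these changes mix conditions. In the first runs the hypothyroid cells started lower and the 2 diets lay close to each other at 14 dpi. At 0 dpi the 3 FAP-like clusters each lay below 1, with ratios of 0.623, 0.454 and 0.664. At 5 dpi they were 1.45, 1.13 and 0.709, so the direction at 5 dpi differed between clusters. At 14 dpi different clusters held the largest share of each pool, the cluster led by *Sbsn* and *Pi16* in control (661 of 1508 cells) and the cluster led by *Igfbp3* and *Apod* in hypothyroid muscle (444 of 822), where the ratios were 0.991 and 1.08. The cell in the middle of the ranking gave another picture at 5 dpi, with a median of 2619 CPM in controls and 2364 CPM in hypothyroid cells, against 1079 and 690 CPM at 0 dpi. Averaging log2(CPM + 1) over single cells also turned the 5 dpi ratio, to 0.806, so no direction is read for the sum at 5 dpi. The 5% of cells with the most stimulated UMIs held 31.5% of them in control and 36.1% in hypothyroid muscle at 0 dpi.

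Of the 33 stimulated genes, 32 had at least 20 UMIs over the 2 FAP-like pools at 0 dpi. At or past 2-fold lower in hypothyroid cells were 15 of the 32, against 4.13% of all genes, and 0 were past 2-fold higher. The count was 4 when log2(CPM + 1) was averaged over single cells, for which no share of all genes is given. The median log2 ratio was -0.99 over these members and 0.00 over all genes. Antiviral effectors made up 10 of the 15, with 3 of the 4 sensors and regulators, 1 of the 5 GTPases and 1 of the 4 transcription factors. Monocyte/macrophage markers summed to 7.31 CPM in hypothyroid and 7.81 CPM in control FAP-like cells at 0 dpi (4 and 5 of 8 markers at 0), and T cell markers to 4.65 and 2.01 CPM (4 and 5 of 7 at 0). The 9 FAP markers summed to 46823 and 49103 CPM. Markers of 2 other cell types moved with the comparison in the same pools. Myocyte markers (8 genes, 0 at 0) summed to 6870 CPM in hypothyroid and 1952 CPM in control FAP-like cells, and erythroid markers (5 genes, 1 and 0 at 0) to 69.1 and 262 CPM. At 14 dpi both lists were lower in the hypothyroid pool, with 1665 and 5673 CPM for myocyte markers and 15.2 and 1505 CPM for erythroid markers. Their part in these ratios was not tested.

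At 5 dpi, 1 of 33 was past 2-fold higher in hypothyroid FAP-like cells (background 3.85%) and 1 past 2-fold lower (background 10.2%). The median log2 ratio of the members was -0.07, while that of all genes was -0.27, so levels at 5 dpi are read against a shift of all genes that ran from -0.15 in endothelial-like cells to -0.46 in cluster 10. At 14 dpi, 0 of 33 were past 2-fold in either direction (background 1.52% higher and 6.28% lower). Over time in FAP-like cells, 13 of 32 were past 2-fold higher at 5 dpi than at 0 dpi in control (background 8.75%) and 19 of 31 in hypothyroid muscle (background 7.71%). From 5 to 14 dpi, 22 of 33 were past 2-fold lower in control (background 7.18%) and 14 of 33 in hypothyroid muscle (background 6.82%).

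The receptor genes did not share the low level of FAP-like cells at 0 dpi. *Ifnar1*, the chain needed for signalling, was at 17.9, 32.3 and 20.7 CPM in control muscle at 0, 5 and 14 dpi and at 21.9, 14.8 and 16.5 CPM in hypothyroid muscle. *Ifnar2*, the chain that binds interferon most tightly, was at 86.0, 95.6 and 55.6 CPM in controls and at 100, 94.5 and 55.2 CPM in hypothyroid muscle. At 0 dpi both intervals of the hypothyroid to control ratio held 1 (1.23, 0.792 to 1.86, for *Ifnar1* and 1.17, 0.960 to 1.41, for *Ifnar2*), and at 5 dpi *Ifnar1* lay at 0.458 (0.225 to 0.914) on 16 and 22 UMIs.

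Among the transcription factors, *Irf7*, which amplifies interferon production, was past 2-fold lower in hypothyroid FAP-like cells at 0 dpi. It was at 19.9, 51.5 and 24.2 CPM in control FAP-like cells and at 6.64, 71.4 and 18.7 CPM in hypothyroid cells, with a ratio of 0.334 (0.155 to 0.644) at 0 dpi, 1.39 (0.919 to 2.13) at 5 dpi and 0.773 (0.621 to 0.960) at 14 dpi. *Irf1*, a factor that interferon γ raises strongly, had another course, at 63.4, 113 and 41.1 CPM in controls and 65.8, 46.3 and 22.9 CPM in hypothyroid cells. It was alike at 0 dpi (ratio 1.04, 0.816 to 1.31) and lower in hypothyroid cells at 5 dpi (0.409, 0.281 to 0.592) and at 14 dpi (0.556, 0.462 to 0.668). *Irf9* and *Stat2*, partners in the complex that binds the interferon-response element, were at 47.2 and 35.2 CPM in hypothyroid cells at 0 dpi against 40.9 and 43.1 CPM in control, and both intervals held 1. At 14 dpi *Irf9* was higher in hypothyroid cells, 44.6 against 28.4 CPM (ratio 1.57, 1.33 to 1.86).

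The antiviral effectors carried the difference at 0 dpi. The 16 genes summed to a hypothyroid to control ratio of 0.410 (0.374 to 0.449) at 0 dpi, 1.21 (1.14 to 1.28) at 5 dpi and 1.09 (1.06 to 1.12) at 14 dpi. *Ifit1*, whose protein binds foreign RNA caps, was at 73.5, 407 and 90.1 CPM in controls and 9.30, 609 and 126 CPM in hypothyroid cells. Its ratio was 0.127 (0.0684 to 0.215) at 0 dpi, on 14 and 329 UMIs, and 1.5 (1.3 to 1.73) at 5 dpi. *Isg15*, a ubiquitin-like protein joined to other proteins, was at 131, 237 and 109 CPM in controls and 55.8, 462 and 152 CPM in hypothyroid cells, and its ratio went from 0.426 (0.335 to 0.537) to 1.95 (1.63 to 2.34). Both genes were thus below control at 0 dpi and above it at 5 and 14 dpi. *Rsad2*, which encodes viperin, an enzyme that makes a chain terminator of viral RNA, had 2 UMIs in hypothyroid and 81 in control cells at 0 dpi (1.33 and 18.1 CPM, ratio 0.0734, 0.00875 to 0.274). At 5 dpi it was alike in the 2 diets, 241 CPM in controls and 222 CPM in hypothyroid cells (0.923, 0.753 to 1.13), so its rise from 0 dpi was 13.3-fold in control (10.2 to 17.6) and 167-fold in hypothyroid cells (45.9 to 1390, on those 2 UMIs).

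*Ifi27l2a*, an interferon-induced membrane protein, was at 167, 520 and 214 CPM in controls and 41.8, 503 and 134 CPM in hypothyroid cells. It was lower in hypothyroid cells at 0 dpi (0.251, 0.191 to 0.325) and at 14 dpi (0.626, 0.579 to 0.675), the latter against the direction of *Isg15* and *Ifit1*. *Ifit3*, a partner of *Ifit1*, was past 2-fold both ways, with a ratio of 0.193 (0.0757 to 0.411) at 0 dpi and 2.77 (1.69 to 4.76) at 5 dpi, on 7 and 88 UMIs in the hypothyroid pools. Also past 2-fold lower at 0 dpi were *Lgals3bp* (0.232), *Rtp4* (0.317), *Parp14* (0.417), *Xaf1* (0.445) and *Oasl2* (0.472). *Bst2*, which tethers budding virus, was at 73.1 CPM in hypothyroid and 96.5 CPM in control cells (0.757, 0.609 to 0.936). *Eif2ak2*, the kinase that halts translation on viral RNA, lay at 0.506 (0.314 to 0.784), and *Ifit2*, *Ifi35* and *Zbp1* had intervals that held 1. *Ifi44* had 7 UMIs over both pools and was not counted. *Rtp4* and *Xaf1* were the effectors furthest above control at 14 dpi, with ratios of 1.58 (1.41 to 1.77) and 1.5 (1.31 to 1.72). The *Ifit* genes, and *Ifi27l2a*, have near copies in the genome between which reads can be split, so their single levels are uncertain.

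**Figure D2:**
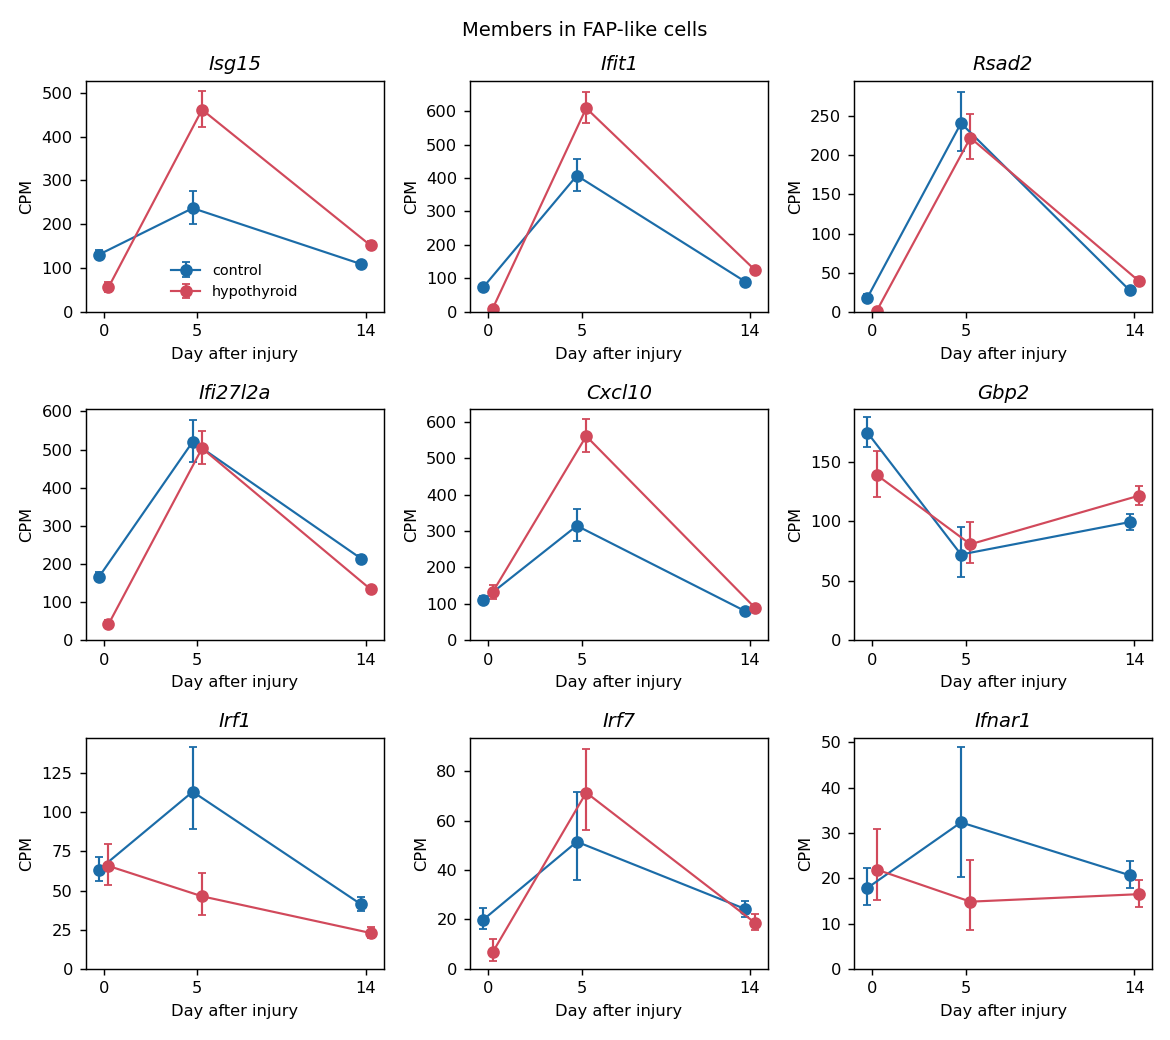
Level (CPM) of 9 members in FAP-like cells by day after injury, with control in blue and hypothyroid in red; bars are 95% Poisson intervals and each panel has its own scale from 0. *Isg15*, *Ifit1*, *Rsad2*, *Ifi27l2a* and *Irf7* start lower in red at 0 dpi, whereas *Irf1* is alike at 0 dpi (63.4 and 65.8 CPM) and apart at 5 dpi (113 and 46.3 CPM).

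Sensors and regulators were lower in hypothyroid FAP-like cells at 0 and 5 dpi. The 4 genes summed to a ratio of 0.301 (0.218 to 0.406) at 0 dpi and 0.594 (0.470 to 0.749) at 5 dpi. *Ifih1*, which encodes the double-stranded RNA sensor MDA5, was at 64.1, 58.8 and 36.6 CPM in controls and 18.6, 30.6 and 28.8 CPM in hypothyroid cells. It lay below control at each of the 3 times, with ratios of 0.290, 0.520 and 0.786. *Trim25*, a ubiquitin ligase that activates RNA sensing, was at 18.8, 91.1 and 26.8 CPM in controls and 7.31, 50.0 and 27.5 CPM in hypothyroid cells. *Usp18*, which removes ISG15 and damps receptor signalling, had 4 UMIs in hypothyroid and 71 in control cells at 0 dpi (0.168, 0.0444 to 0.448), and *Dhx58* had 27 over both pools.

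The interferon-inducible GTPases and the antigen processing genes differed less between the diets. The 5 GTPases summed to 0.719 (0.641 to 0.804) at 0 dpi, 0.996 (0.832 to 1.2) at 5 dpi and 1.14 (1.08 to 1.21) at 14 dpi. *Gbp2*, a guanylate-binding protein that coats intracellular pathogens, was lower at 5 dpi than at 0 dpi in both diets. It was at 174, 72.0 and 99.2 CPM in controls and 139, 80.6 and 121 CPM in hypothyroid cells, with ratios of 5 to 0 dpi of 0.413 (0.303 to 0.552) and 0.581 (0.447 to 0.749). *Gbp7* and *Igtp* lay at 0.586 (0.407 to 0.826) and 0.503 (0.305 to 0.795) at 0 dpi. *Gbp3* was past 2-fold lower in hypothyroid cells at 0 dpi (0.395, 0.223 to 0.658), while *Irgm1*, a GTPase of autophagy, had an interval that held 1 at 0 dpi and was at 113 against 67.6 CPM at 5 dpi (1.67, 1.18 to 2.40). The 3 antigen processing genes *Psmb8*, *Psmb9* and *Tap1*, which encode immunoproteasome subunits and the peptide transporter, summed to 0.738 (0.582 to 0.927) at 0 dpi and 1.2 (1.06 to 1.37) at 14 dpi. Reads of the *Gbp* family can also be split between near copies.

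*Cxcl10*, the chemokine that draws CXCR3-positive T and NK cells, did not share the low level at 0 dpi. It was at 111, 315 and 79.9 CPM in control FAP-like cells and 132, 561 and 90.1 CPM in hypothyroid cells, with a ratio of 1.78 (1.52 to 2.09) at 5 dpi. In T cell-like cells, which are not known for it, the level at 5 dpi was 1420 and 1728 CPM, and in myogenic progenitor-like cells 302 and 735 CPM. Free RNA in the droplets can add such UMIs, and its part in these levels was not tested.

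At 5 dpi a few members lay above control in every class with enough UMIs. *Isg15* had a ratio above 1 in 9 of 9 classes with enough UMIs, and its interval lay above 1 in 8 of them. *Xaf1*, a pro-apoptotic effector, lay above 1 in 8 of 8 classes with all 8 intervals above 1 (1.61 to 2.26). *Irgm1* and *Psmb8* lay above 1 in 9 of 9 classes and *Cxcl10*, *Ifi35* and *Irf7* in 8 of 8. Other members went the other way in the same libraries. *Irf1*, *Tap1* and *Trim25* lay above 1 in 0 of 9 classes, with intervals below 1 in 5, 5 and 6 classes, and *Ifnar1* in 0 of 8, with 5 intervals below 1. The classes share the same 2 libraries and are not replicates of each other, and the ratios are not corrected for the shift of all genes. How many of all genes lie on the same side of 1 in every class was not counted. These patterns are therefore not read as particular to the members.

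Monocyte/macrophage-like cells of hypothyroid muscle had a higher summed level at both times after injury. The ratio was 1.36 (1.33 to 1.39) at 5 dpi and 1.53 (1.46 to 1.6) at 14 dpi, though with all columns of the tables the latter was 0.864. At 14 dpi only the control table has later columns. Their libraries are not known, so values from all columns there may mix conditions. At 5 dpi *Isg15* was at 430 CPM in controls and 1069 CPM in hypothyroid cells (2.49, 2.27 to 2.73), and *Ifit1* at 561 and 1105 CPM (1.97, 1.82 to 2.14). *Tap1* was lower, 98.9 against 59.3 CPM (0.599, 0.482 to 0.750), as were *Trim25* (0.719) and *Stat2* (0.733). Past 2-fold higher were 3 of 33 at 5 dpi, against 6.89% of all genes, and 10 of 33 at 14 dpi, against 9.58%. These counts were 17 and 26 with log2(CPM + 1) averaged over single cells, and the latter was 0 with all columns. No share of all genes under these alternatives is given, so their counts are not read as a result about the members. At 14 dpi *Ifit2* went from 40.3 to 146 CPM (3.63, 2.26 to 6.15) and *Gbp2* from 29.7 to 95.9 CPM (3.23, 1.86 to 6.08).

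Granulocyte markers moved with the same comparison. The 3 that the tables hold summed to 2734 CPM in the control pool at 5 dpi and 26.6 CPM in the hypothyroid pool, and to 144 and 26.2 CPM at 14 dpi. Over the cells with 0 UMIs of these markers (186 of 253 control and 484 of 585 hypothyroid cells at 5 dpi), the summed ratio was 1.42 (1.38 to 1.46) at 5 dpi and 1.59 (1.52 to 1.67) at 14 dpi, and *Isg15* lay at 2.62 and 1.86.

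T cell-like cells followed the monocyte/macrophage-like cells. The summed ratio was 1.35 (1.31 to 1.40) at 5 dpi and 1.70 (1.58 to 1.82) at 14 dpi. At 5 dpi *Psmb8* went from 215 to 614 CPM (2.85, 2.37 to 3.43), *Psmb9* from 129 to 379 CPM (2.94) and *Isg15* from 338 to 877 CPM (2.60), whereas *Ifnar1* went from 126 to 65.2 CPM (0.518) and *Rsad2* from 528 to 401 CPM (0.760). Past 2-fold higher were 7 of 33 at 5 dpi (background 3.57%) and 9 of 30 at 14 dpi (background 8.3%). The count at 5 dpi was 1 with all columns, which may mix conditions. It was 18 with log2(CPM + 1) averaged over single cells, again without a share of all genes. *Ifit3*, *Ifit1* and *Isg15* led at 14 dpi with ratios of 2.95, 2.37 and 2.03. In NK cell-like cells at 5 dpi the sum was alike in both diets (4105 and 4198 CPM, ratio 1.02, 0.980 to 1.07), although *Isg15* lay at 2.68 and *Trim25* at 0.526.

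Cluster 10, which had the highest summed level, had a ratio of 1.60 (1.56 to 1.63) at 5 dpi. *Isg15* was at 824 CPM in controls and 2736 CPM in hypothyroid muscle at 5 dpi (3.32, 3.12 to 3.54), *Irf7* at 97.2 and 241 CPM (2.48) and *Psmb9* at 132 and 298 CPM (2.25). *Irf1* lay at 0.676 and *Tap1* at 0.790. Past 2-fold higher were 5 of 33 (background 2.92%). In cluster 5 the summed ratio was 1.46 (1.44 to 1.49) and 5 of 33 were past 2-fold higher at 5 dpi (background 3.69%), with *Irgm1* at 32.5 and 89.0 CPM (2.74, 2.33 to 3.23) and *Cxcl10* at 279 and 662 CPM (2.37, 2.24 to 2.51). *Ifnar1* in cluster 5 was at 49.9 CPM in controls and 24.9 CPM in hypothyroid muscle (0.500, 0.423 to 0.591).

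Endothelial-like cells shared the low level of uninjured hypothyroid FAP-like cells. Their sum was 4913 CPM in controls and 3029 CPM in hypothyroid muscle at 0 dpi (0.617, 0.529 to 0.715), from 103 and 30 cells. With all columns of the tables the ratio was 1.48, but at 0 dpi these include copies of cells from the tables of other conditions. *Isg15* was at 736 and 214 CPM (0.291, 0.159 to 0.495), and 9 of 24 members with enough UMIs were past 2-fold lower, against 16.3% of all genes. At 5 dpi the sum lay at 1.17 (1.12 to 1.22) with 1 of 33 past 2-fold higher (background 4.39%), which was *Cxcl10* at 699 and 1767 CPM (2.53, 2.24 to 2.85). At 14 dpi the sum was lower in hypothyroid cells (0.877, 0.853 to 0.901) and 4 of 33 were past 2-fold lower (background 6.46%), among them *Ifi27l2a* at 123 and 46.5 CPM (0.378) and *Gbp3* at 168 and 79.9 CPM (0.477). Myocyte-like and B cell-like cells also lay below 1 at 0 dpi, at 0.405 (0.319 to 0.510) and 0.602 (0.420 to 0.848), whereas myogenic progenitor-like cells lay above it, at 1.48 (1.09 to 2.0) from 39 control and 27 hypothyroid cells. Few members had enough UMIs in these pairs, 7 of 33 in myocyte-like, 2 in B cell-like and 1 in myogenic progenitor-like cells. The B cell-like pools held 35 control and 20 hypothyroid cells.

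**Figure D3:**
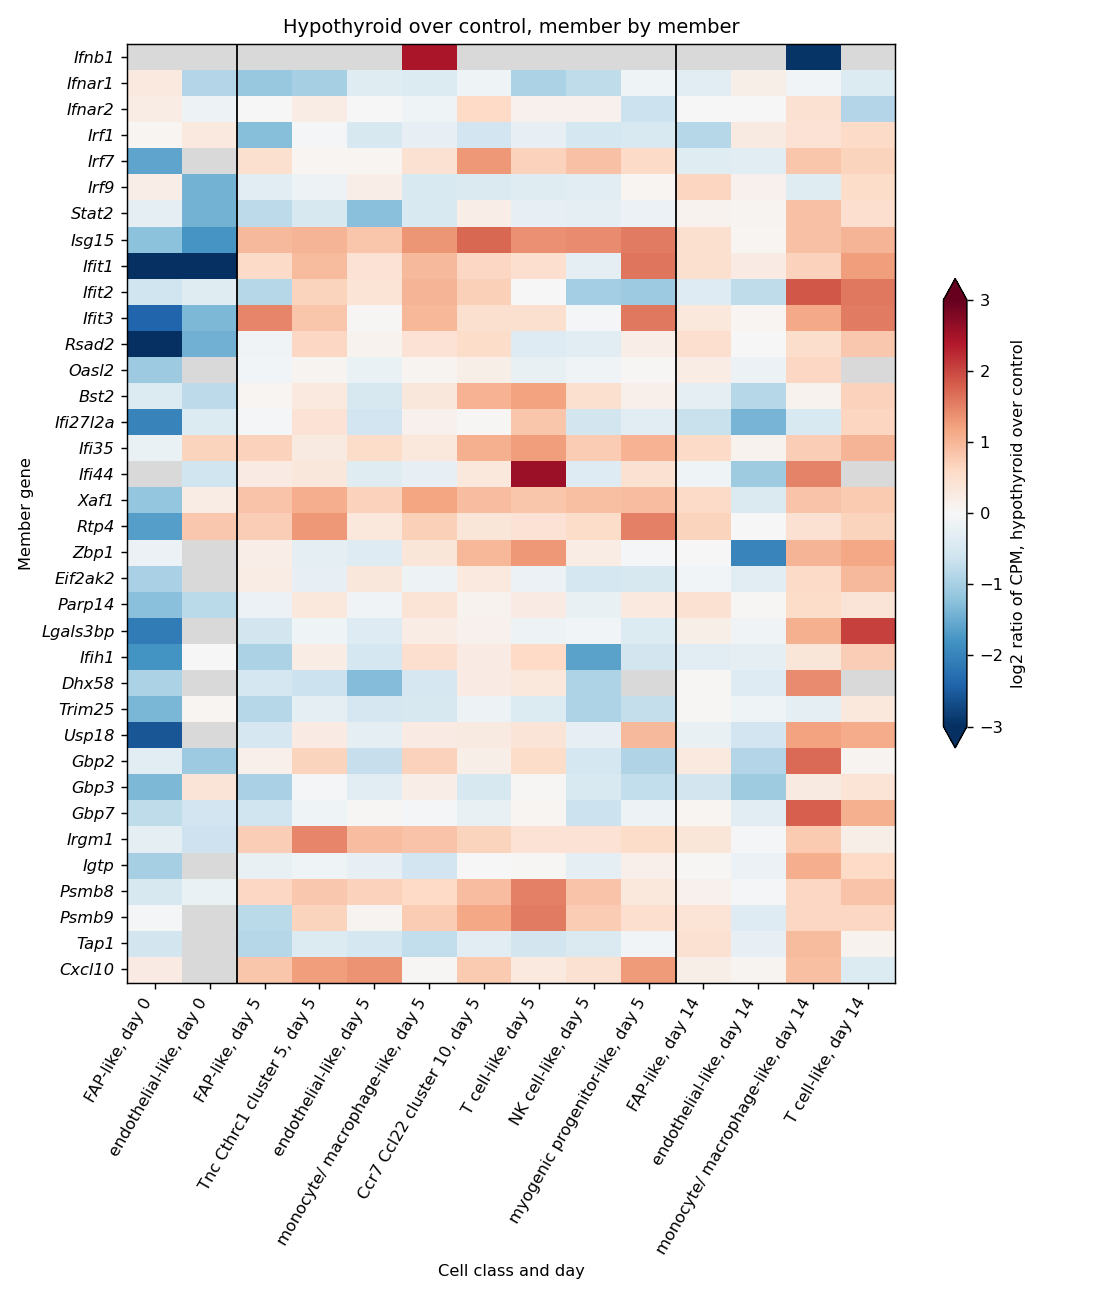
Log2 ratio of hypothyroid over control CPM (color, limited to -3 to 3) for each member (vertical axis) in each class and day (horizontal axis); gray marks pairs with fewer than 20 UMIs or with 0 UMIs in a pool. The FAP-like column at 0 dpi is mostly blue, and *Isg15*, *Xaf1*, *Irgm1* and *Psmb8* form red lines across the classes at 5 dpi beside blue lines for *Ifnar1*, *Irf1*, *Tap1* and *Trim25*.

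Since depth differed between libraries, each cell was also thinned to 1000 UMIs and called responding when it held UMIs of at least 3 of the 33 genes. Responding were 16.4% (13.8 to 19.3) of control and 3.05% (1.40 to 5.71) of hypothyroid FAP-like cells at 0 dpi. At 5 dpi the shares were 44.1% and 42.6%, with overlapping intervals, and at 14 dpi 16.1% and 15.2%. Without thinning the same shares at 0 dpi were 71.3% and 50.2%. Thinning left out 20, 1 and 59 control and 7, 20 and 18 hypothyroid cells in that order of days. Among monocyte/macrophage-like cells the shares were 54.8% (48.1 to 61.4) and 77.7% (74.0 to 81.1) at 5 dpi, and 44.8% (34.6 to 55.3) and 54.6% (46.0 to 63.0) at 14 dpi, where the intervals overlapped. Among T cell-like cells they were 79.8% and 90.8% at 5 dpi and 64.1% and 81.9% at 14 dpi. Cluster 5 went from 34.0% to 48.9%, and cluster 10 from 84.2% to 94.0%. In endothelial-like cells at 5 dpi the shares were 75.6% and 61.3% with overlapping intervals, against the direction of the CPM, and no order is read from them.

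**Figure D4:**
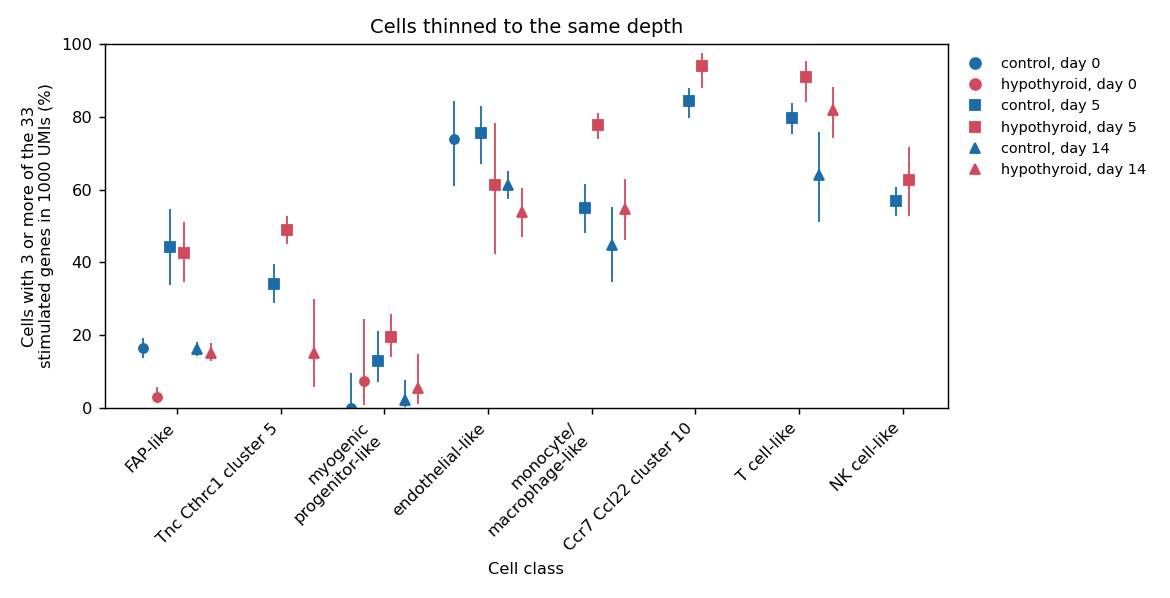
Share of cells (%) with UMIs of at least 3 of the 33 stimulated genes after thinning each cell to 1000 UMIs, by class, with control in blue, hypothyroid in red and the day as marker shape; bars are 95% Clopper-Pearson intervals. FAP-like cells at 0 dpi are at 16.4% and 3.05%, while those at 5 dpi overlap (44.1% and 42.6%).

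*Ifnb1*, the ligand, was rare. The 11207 cells held 720 *Ifnb1* UMIs in 108 cells, of which 656 UMIs in 88 cells came from hypothyroid muscle at 5 dpi, 4.08% of its 2155 cells (3.29 to 5.01). Control muscle had 19 UMIs in 5 of 2428 cells at 5 dpi and 31 in 7 of 3294 at 14 dpi, hypothyroid muscle had 14 in 8 of 1650 at 14 dpi, and the 2 uninjured libraries had 0 UMIs in 1152 and 528 cells, which allows a share of cells with a UMI of up to 0.260% and 0.568%. Such limits, set at 3 divided by the number of cells, hold for cells with a UMI and not for cells that express the gene. The uninjured libraries were shallower (median 4589 and 3634 UMIs a cell) than that of hypothyroid muscle at 5 dpi (8055). They also held only 3 control and 7 hypothyroid monocyte/macrophage-like cells, and 0 cells of cluster 5. Monocyte/macrophage-like cells held 66.5% of the UMIs and cluster 5 held 32.5%. The level in monocyte/macrophage-like cells was 16.1 CPM in controls and 87.2 CPM in hypothyroid muscle at 5 dpi (ratio 5.43, 3.43 to 9.10), but 63.6 and 8.24 CPM at 14 dpi, on 30 and 11 UMIs. At 14 dpi these UMIs lay in 6 of 118 control cells (5.08%, 1.89 to 10.7) and 6 of 153 hypothyroid cells (3.92%, 1.45 to 8.34), so the shares of cells overlapped. Over cells with 0 UMIs of the granulocyte markers the ratio was 6.70 (3.79 to 13.1) at 5 dpi and 0.282 (0.119 to 0.638) at 14 dpi. In hypothyroid muscle at 5 dpi, 73 of 585 monocyte/macrophage-like cells held a UMI (12.5%, 9.91 to 15.4), against 0 of 190 myogenic progenitor-like, 0 of 126 NK cell-like and 0 of 121 cluster 10 cells. Those classes had median depths of 12965.5, 3955 and 7280 UMIs, against 6210 in the monocyte/macrophage-like cells. Endothelial-like cells had 0 UMIs in 1417 cells over all libraries, despite their high level of stimulated genes.

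*Pdgfra*-positive cells, taken as any cell with at least 1 UMI of *Pdgfra*, had *Ifnb1* UMIs in 2 libraries. In hypothyroid muscle at 5 dpi, 9 of 619 cells held 158 UMIs (1.45%, 0.667 to 2.74), a level of 15 CPM (12.8 to 17.6). The other libraries had 0 of 508 control cells at 0 dpi (a share with a UMI of up to 0.591%), 0 of 316 at 5 dpi (0.949%) and 0 of 1102 at 14 dpi (0.272%), and 0 of 177 hypothyroid cells at 0 dpi (1.69%) and 1 of 651 at 14 dpi. The median depth of *Pdgfra*-positive cells was 14991 and 15816 UMIs in control and hypothyroid muscle at 5 dpi, and 4590 to 10162 UMIs in the other libraries. The 158 UMIs were held by very few cells. A single cell of cluster 5 held 106 *Ifnb1* UMIs, beside 3 of *Pdgfra*, 239 of *Col1a1*, 1 of *Lyz2* and 0 of *Cd68*, and its stimulated genes summed to 11977 CPM. A further cell with 40 *Ifnb1* UMIs had 1 UMI of *Pdgfra*, 90 of *Col1a1* and 32 of the macrophage gene *Lyz2*. Without the first cell the level was 4.96 CPM and without both it was 1.15 CPM.

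Cluster 5 as a whole had 234 UMIs in 12 of 706 hypothyroid cells at 5 dpi (1.70%, 0.881 to 2.95) and 0 in 325 control cells, which allows a share of cells with a UMI of up to 0.923%, at median depths of 16269.5 and 15648 UMIs. Of these 12, 1 cell with 74 *Ifnb1* UMIs had 0 of *Pdgfra*, 334 of *Col1a1* and 143 of *Lyz2*. Monocyte/macrophage markers summed to 210 CPM in hypothyroid and 46.8 CPM in control cells of cluster 5 at 5 dpi, with 0 of 8 markers at 0 in either pool. No doublets were removed, and the part of droplets that hold both cell types in these UMIs was not tested. FAP-like cells proper held 2 UMIs in 2 of 168 hypothyroid cells at 5 dpi.

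**Figure D5:**
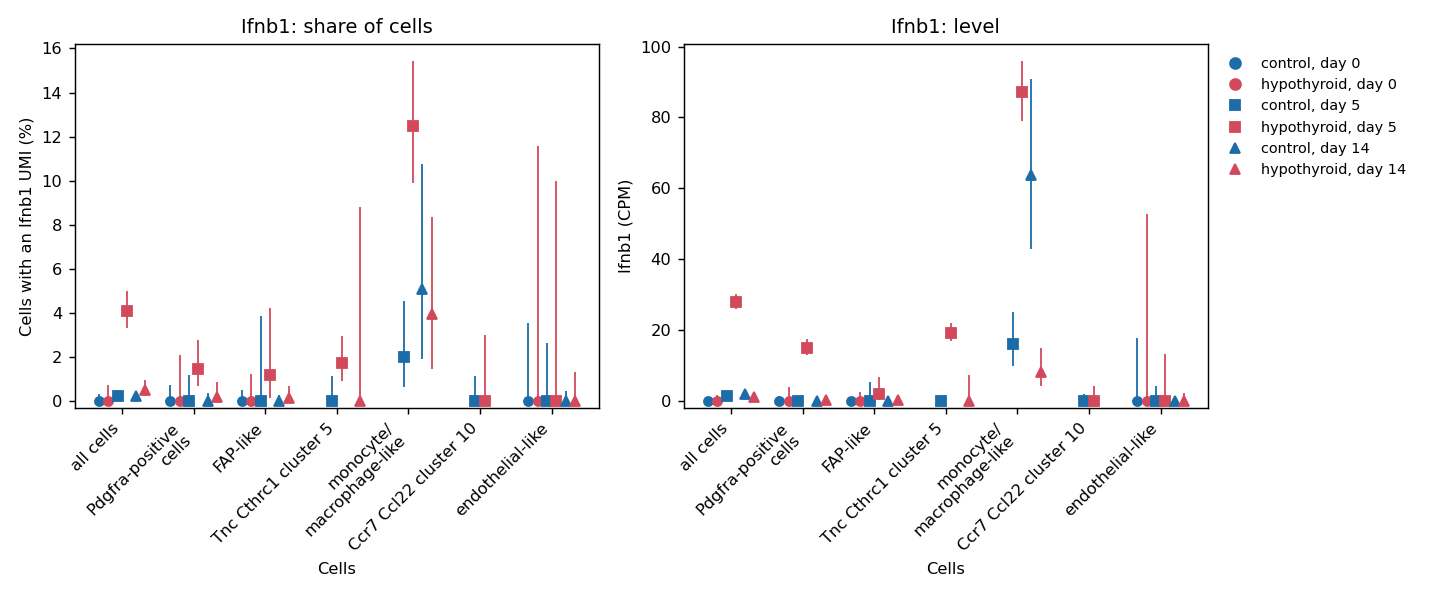
Share of cells with an *Ifnb1* UMI (left, %, with 95% Clopper-Pearson bars) and *Ifnb1* level (right, CPM, with 95% Poisson bars) in all cells, *Pdgfra*-positive cells and 5 classes, with control in blue, hypothyroid in red and the day as marker shape; cell groups with fewer than 20 cells are not drawn. Monocyte/macrophage-like cells of hypothyroid muscle at 5 dpi stand highest (12.5% and 87.2 CPM), and *Pdgfra*-positive cells are above 0 mainly there (1.45% and 15 CPM).

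Pooled cells with *Ifnb1* had more of the stimulated genes than the other pooled cells of their group and library. In hypothyroid monocyte/macrophage-like cells at 5 dpi the sum was 13822 CPM in the 73 cells with *Ifnb1* and 9386 CPM in the 512 without (ratio 1.47, 1.44 to 1.51), with median depths of 5674 and 6344.5 UMIs. *Ifit1* was at 2036 against 986 CPM (2.07, 1.93 to 2.21), beside *Rsad2* (1.67), *Isg15* (1.64) and *Cxcl10* (1.59). At 14 dpi the ratio was 3.97 (3.73 to 4.23) with 6 hypothyroid cells and 3.19 with 6 control cells, and at 5 dpi 1.65 with 5 control cells. In *Pdgfra*-positive cells of hypothyroid muscle at 5 dpi the 9 cells with *Ifnb1* were at 7958 CPM and the 610 without at 4076 CPM (1.95, 1.85 to 2.06), and *Rsad2* was at 876 and 175 CPM (5.01, 4.20 to 5.93). The median cell showed less of it, with 3455 CPM in the 9 cells and 2687 CPM in the 610. Single cells of the 9 ranged from 684 to 15914 CPM. A monocyte/macrophage-like cell with 60 UMIs of *Lyz2* was among them. The part of droplets that hold both cell types in these ratios was not tested. The cells compared are of the same library and not replicates, and the intervals cover UMIs only.

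*Ifnb1* in all cells was at 0, 1.23 and 1.88 CPM in controls and 0, 27.9 and 1.07 CPM in hypothyroid muscle at 0, 5 and 14 dpi. In hypothyroid muscle this was the order of the summed level in FAP-like cells (985, 4262 and 1653 CPM), with both highest at 5 dpi, while in controls the sum was highest at 5 dpi (1676, 3687 and 1525 CPM) and *Ifnb1* was within counting error at 5 and 14 dpi. Class make-up differed between the libraries. At 5 dpi monocyte/macrophage-like cells made up 10.4% of control and 27.1% of hypothyroid cells, and cluster 5 made up 13.4% and 32.8%. Within monocyte/macrophage-like cells the *Ifnb1* ratio at 5 dpi was 5.43. The part of class make-up in the levels over all cells was not tested. At 0 dpi, the ratio in FAP-like cells was 0.588 with 0 *Ifnb1* UMIs in either library. Those libraries held only 3 control and 7 hypothyroid monocyte/macrophage-like cells, and 0 cells of cluster 5. *Ifng*, the interferon γ gene, which is no member, was at 7.94 CPM in controls and 84.6 CPM in hypothyroid T cell-like cells at 5 dpi, at 79.5 and 49.6 CPM at 14 dpi, and at 19.0 and 69.9 CPM in NK cell-like cells at 5 dpi. Its part in these levels was not tested.

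Of 123 other genes of the pathway that were listed, 100 are in the tables, among them 74 further stimulated genes. In FAP-like cells these 74 summed to a ratio of 0.783 (0.767 to 0.801) at 0 dpi, 1.12 (1.09 to 1.16) at 5 dpi and 1.13 (1.12 to 1.14) at 14 dpi, so their low level at 0 dpi was smaller than that of the members. The 14 sensing genes upstream of interferon lay at 1.0 (0.891 to 1.13) at 0 dpi. Of the further stimulated genes, 13 of the 56 with enough UMIs were past 2-fold lower at 0 dpi, against 4.13% of all genes, and 0 higher, among them *Sp100* (68.8 to 20.6 CPM, ratio 0.299), *Slfn5* (153 to 53.8 CPM, 0.351) and the GTPase *Iigp1* (320 to 127 CPM, 0.396). The genes of signalling below the receptor, summed without the members and so without *Usp18*, lay at 1.15 (1.10 to 1.21) at 0 dpi, above 1. At 5 dpi *Cxcl9*, a chemokine that interferon γ raises, was higher in hypothyroid FAP-like cells (23.5 to 108 CPM, 4.57) and in cluster 5 (54.9 to 208 CPM, 3.79), but lower in endothelial-like cells (262 to 114 CPM, 0.434). *Socs3*, a feedback inhibitor of STAT3 signalling, was lower in FAP-like cells (387 to 162 CPM, 0.419) and in cluster 5 (423 to 192 CPM, 0.454). In monocyte/macrophage-like cells at 5 dpi *Oas1a*, an RNA-activated synthetase, went from 7.61 to 67.0 CPM (8.80) and *Gbp5* from 37.2 to 125 CPM (3.37), while *Ifitm1* went from 215 to 13.3 CPM (0.062) and *Ly6e* from 530 to 174 CPM (0.328). At 14 dpi *Ifi47* (23.3 to 105 CPM, 4.50) was higher there.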

How the data were processed

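Libraries were made with 10x Genomics 3′ V3 chemistry from single-cell suspensions depleted of red and dead cells, 1 library for each of 6 conditions from 3 pooled mice. Per the labels and the study's methods, the authors aligned reads with Cell Ranger to mm39, counted UMIs against GENCODE annotation in Partek Flow and deposited log2(CPM + 1) values, 1 column a cell. The log2 values were turned back into UMIs by setting 1 UMI to the commonest nonzero value of a cell, and 99.9% of 39334018 values came out whole within 0.05 UMI.

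Each table joins several runs of barcodes. Only the first run was taken as the labelled library, and the 9062 later columns, whose libraries are not given in the sources used here, were used only in 1 alternative and in the closing section. First runs held 2283954 to 23497544 UMIs. The members, gene lists and marker lists were chosen with earlier results of these data known.

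Cells were clustered with scanpy 1.11.5 (2000 variable genes without the members and pathway genes, 20 principal components, 15 neighbours, Leiden resolution 0.3, 8 starts), and a cluster was named where at least 3 markers of 1 list were raised. No doublet caller was run. With 1 library a group, no test between conditions was made. CPM have exact Poisson intervals, ratios exact conditional binomial intervals and shares Clopper-Pearson intervals, all at 95%, for counting error only. The single upper limits given where 0 cells held an *Ifnb1* UMI are instead 3 divided by the number of cells. They lie below the Clopper-Pearson upper limit. Genes needed 20 UMIs over a pair of pools, and classes 20 cells in each pool, to be counted. Past 2-fold means a ratio of at least 2 or at most its inverse. All members were accounted for. In each class and pair of libraries, values were given for the ligand, the receptors, the transcription factors and the 3 members with the largest ratio each way among those whose higher pool had 100 UMIs or more, and further members of FAP-like cells were named after their values were seen. Pathway genes were named from those past 2-fold whose interval left out 1, by the same minimum. The scripts were tested on simulated data. Alternatives were other columns, cell summaries, classes, resolution, scaling and UMI recovery. Promoter sequences were read from the GRCm39 genome at the starts of the annotated canonical transcripts.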

Additional observations from a re-analysis of the deposited data

Results flagged for a closer look

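The hypothyroid to control ratio of the summed stimulated genes lay on different sides of 1 at different times. In FAP-like cells it was 0.588 at 0 dpi, 1.16 at 5 dpi and 1.08 at 14 dpi, and in endothelial-like cells it was 0.617, 1.17 and 0.877. The FAP-like ratio at 5 dpi was 0.806 with log2(CPM + 1) averaged over single cells, so its side of 1 depends on the processing. The endothelial-like ratio at 0 dpi was 1.48 with all columns. That value mixes conditions, because all columns at 0 dpi include copies of cells from the tables of other conditions. *Ifnb1* in monocyte/macrophage-like cells had a ratio of 5.43 at 5 dpi and 0.130 at 14 dpi, and of 6.70 and 0.282 over cells with 0 UMIs of granulocyte markers. At 14 dpi it rested on 6 cells in each pool, 5.08% of control and 3.92% of hypothyroid cells. With 1 library a condition, none of these differences between days was tested.

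*Ifnb1* UMIs also occurred in the later columns, which the main comparisons left out. Those in the tables of uninjured muscle are in copies of first-run cells and so are not additional. The second run of the control table at 0 dpi held 13, in cells that are copies of the first run of the hypothyroid table at 14 dpi, and the second run of the hypothyroid table at 0 dpi held 7, in copies of cells of the control table at 5 dpi. The second run of the control table at 5 dpi held 31, the third run of the control table at 14 dpi 31, and the third run of the hypothyroid table at 5 dpi 9.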

How the results depend on the processing

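No paired analysis was possible because each condition is 1 library. Counts of members past 2-fold under an alternative are given without the share of all genes under it. They show only how the count moved. Of 68 values of the main comparisons that are ratios, 66 kept their side of 1 under the alternatives, and of 189 further ratios 169 did. Many still moved in size. Of all values of the main comparisons, 59 were classed as the same, 59 as moved and 2 as reversed. Of the further ratios, 85 were classed as the same, 97 as moved and 7 as reversed. For a ratio, moved means outside the interval of its main value. The later columns of the control table at 0 dpi are 1152 copies of cells of the hypothyroid table at 14 dpi. Those of the hypothyroid table at 0 dpi are 528 copies of cells of the control table at 5 dpi. The hypothyroid table at 14 dpi has no later columns. For the other tables at 5 and 14 dpi the libraries of the later columns are not known. The second run of the control table at 14 dpi has 1152 cells, as many as the first control run at 0 dpi. That of the hypothyroid table at 5 dpi has 528, as many as the first hypothyroid run at 0 dpi. Taking all columns of each table, which adds 9062 columns by construction, mixes conditions at 0 dpi and may mix them at 5 and 14 dpi, changed most. Under it the hypothyroid to control ratio was 0.675 at 0 dpi and 1.49 at 5 dpi in FAP-like cells, 1.12 in T cell-like cells at 5 dpi, and reversed to 0.864 in monocyte/macrophage-like cells at 14 dpi, 1.48 in endothelial-like cells at 0 dpi and 0.709 in mural-like cells at 14 dpi. The FAP-like change from 0 to 5 dpi became 1.03 in control and 2.26 in hypothyroid muscle, and that from 5 to 14 dpi 0.945 and 0.649. The endothelial-like change from 0 to 14 dpi in hypothyroid muscle reversed to 0.627 and the monocyte/macrophage-like change from 5 to 14 dpi in control to 1.26. Named classes above 1 at 0 dpi went from 1 to 2, members past 2-fold higher went from 10 to 0 in monocyte/macrophage-like cells at 14 dpi and from 7 to 1 in T cell-like cells at 5 dpi, and *Ifnb1* in *Pdgfra*-positive cells was at 10.6 CPM.

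When log2(CPM + 1) was averaged over single cells, the FAP-like ratio was 0.523 at 0 dpi and reversed to 0.806 at 5 dpi. The FAP-like changes were 2.49 and 3.84 from 0 to 5 dpi and 0.356 and 0.486 from 5 to 14 dpi, in control and hypothyroid muscle. Ratios were 1.82 in T cell-like cells and 1.6 in cluster 5 at 5 dpi, 2.53 and 3.24 in monocyte/macrophage-like cells at 5 and 14 dpi, and reversed to 0.882 in myogenic progenitor-like cells at 5 dpi and 1.38 in tenocyte-like cells at 14 dpi. Members past 2-fold went from 15 to 4 in FAP-like cells at 0 dpi, from 3 to 17 and from 10 to 26 in monocyte/macrophage-like cells, and from 7 to 18 in T cell-like cells at 5 dpi. *Ifnb1* in *Pdgfra*-positive cells was 0.0814. The cause of these changes was not tested.

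With classes from marker counts, FAP-like ratios were 0.513 at 0 dpi and 1.42 at 5 dpi, the FAP-like changes 1.78 and 4.93 from 0 to 5 dpi and 0.511 from 5 to 14 dpi in control, the T cell-like ratio 1.47, the monocyte/macrophage-like ratio at 5 dpi 1.27 with 1 member past 2-fold, and the tenocyte-like ratio reversed to 1.23. Named classes above 1 went to 0 at 0 dpi and from 6 to 3 at 14 dpi. At resolution 0.6, the T cell-like and monocyte/macrophage-like ratios at 5 dpi were 1.48 and 1.69, the latter with 8 members past 2-fold. With median ratio scaling, 5 dpi ratios were 1.39 in FAP-like cells, 1.73 in T cell-like cells, 1.83 in cluster 5 with 8 members past 2-fold and 1.64 in monocyte/macrophage-like cells with 7, and the hypothyroid FAP-like changes were 5.29 and 0.355. With the smallest value of a cell as 1 UMI, FAP-like ratios were 0.551 and 1.25, the FAP-like changes 2.09 and 4.74 from 0 to 5 dpi and 0.37 from 5 to 14 dpi in hypothyroid muscle, the monocyte/macrophage-like ratio at 14 dpi 1.78 and *Ifnb1* in *Pdgfra*-positive cells 10.7 CPM.

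Alternatives chosen after seeing the data left out single genes or cells. Without *Ifi27l2a* the control FAP-like change from 0 to 5 dpi was 2.1, and without *Bst2* the cluster 5 ratio was 1.51. Without cells that held a granulocyte marker, the monocyte/macrophage-like ratio at 5 dpi was 1.42 with 6 members past 2-fold. Without the 1 or 2 cells with the most UMIs, *Ifnb1* in *Pdgfra*-positive cells was at 4.96 and 1.15 CPM. Depth limits *Ifnb1*, *Rsad2*, *Usp18*, *Dhx58* and *Ifi44* most, which had at most 4 UMIs each in hypothyroid FAP-like cells at 0 dpi.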
